A study of Mus musculus with 21 samples.

Results

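Il33 and the other cytokine and chemokine genes of the brain were followed through libraries of the subcommissural organ (SCO) and the hippocampus of newborn mice. The genes were chosen by name. They are Il33 with the genes of its receptor chain ST2 (Il1rl1) and co-receptor (Il1rap), Il18, the growth factors Il34 and Csf1, and the chemokines Cx3cl1, Cxcl12 and Cxcl14. Of the 9 genes, 8 have a row among the 31883 genes of the deposited table, and Il1rl1 was not analysed here. They were picked with their values in these libraries known, so their own differences are given as a description, with no p-value, and nothing is read from whether they passed a threshold.

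The study compared the SCO, a gland of secretory ependymal cells at the caudal end of the third ventricle, with the hippocampus in C57BL/6 mice. RNA of whole tissue was sequenced in bulk. On postnatal day 0 (P0) there were 5 hippocampus and 4 SCO libraries, and 12 further samples, from postnatal day 60, were not analysed here. The labels name no genetic change and no treatment for either group. They do not say whether the samples of a tissue came from separate animals, so the p-values below measure the spread from sample to sample, part or all of which may be technical. Bulk values also cannot tell fewer cells of a type from less RNA per cell.

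IL-33 is a cytokine of the IL-1 family that is stored in the nucleus and released when cells are damaged. It binds ST2, which pairs with the co-receptor IL1RAP and signals through MYD88, and in the brain it is known as a product of astrocytes and oligodendrocytes that acts on microglia and mast cells. IL-18 is a relative that caspase-1 cuts into its active form. CSF1 and IL-34 share the receptor CSF1R, on which microglia depend. CX3CL1 is a membrane-bound chemokine of neurons read by CX3CR1 on microglia, and CXCL12 guides migrating neurons through CXCR4 and ACKR3.

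Il33 and Il18 were the genes of the set whose tissues did not overlap, so the promoters of these genes are shown. They are RefSeq sequences of the build GRCm38.p6, 300 bases each on the plus strand, from 250 bases before the transcription start through the first 50 bases of the transcript. RefSeq gives Il33 a pair of starts. The first promoter lies at chr19:29924863-29925162, the second at chr19:29945540-29945839, and that of Il18 at chr9:50554450-50554749. Capitals mark the letters TATAAA, the core of a TATA box, or TTTATA, the same letters on the other strand.
Il33, first start: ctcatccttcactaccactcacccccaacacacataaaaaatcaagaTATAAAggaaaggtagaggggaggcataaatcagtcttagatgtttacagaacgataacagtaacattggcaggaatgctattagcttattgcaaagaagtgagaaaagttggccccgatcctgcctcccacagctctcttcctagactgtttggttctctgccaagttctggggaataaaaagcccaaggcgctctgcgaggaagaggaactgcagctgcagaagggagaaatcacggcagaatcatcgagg
Il33, second start: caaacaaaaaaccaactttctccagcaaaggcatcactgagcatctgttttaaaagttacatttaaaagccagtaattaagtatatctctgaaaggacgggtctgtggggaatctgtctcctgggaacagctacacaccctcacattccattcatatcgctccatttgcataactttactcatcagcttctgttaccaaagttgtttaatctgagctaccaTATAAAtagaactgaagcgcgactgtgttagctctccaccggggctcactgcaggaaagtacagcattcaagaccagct
Il18: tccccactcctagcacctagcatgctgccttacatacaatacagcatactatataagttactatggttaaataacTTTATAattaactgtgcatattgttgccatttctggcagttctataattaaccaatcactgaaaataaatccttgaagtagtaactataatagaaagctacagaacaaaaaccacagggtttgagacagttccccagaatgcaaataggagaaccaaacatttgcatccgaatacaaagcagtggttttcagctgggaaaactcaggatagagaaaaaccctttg
The match in the second Il33 promoter ended 24 bases before the start and began 29 bases before it. In the first Il33 promoter the match began 203 bases before the start, and in that of Il18, on the minus strand, 175 bases before it. Matches to TATAAA on either strand occurred in 13.6% of the 32851 RefSeq promoters of this length. The first Il33 promoter also held TGTTTAC, a forkhead core found in 3.65% of promoters, and CAGCTG, an E-box found in 16.3%. The Il18 promoter held GTTGCC, a core of RFX sites found in 12.5%, and CAGCTG. All motifs were searched on both strands, CAGCTG reads the same on both, and none of these matches overlapped another. The letters TAATCC of OTX homeodomain factors, found in 7.06% of promoters, were not in these windows. Neither were AGATAA, read by the GATA family (11.2%), nor CCGGAA of ETS factors (14.9%). The GC content was 46.3% and 42.3% for Il33 and 36.7% for Il18, against a median of 52.7% over all these promoters. A promoter was found for 7 of the 8 genes, all but Il34.

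In the annotation GENCODE M21 of GRCm38, Il33 (ENSMUSG00000024810.16) lies on chromosome 19 from 29925114 to 29960718, plus strand. Il18 (ENSMUSG00000039217.13) lies on chromosome 9 from 50554827 to 50581840, plus strand. Both are protein-coding genes whose reads were counted over the gene, so exons, UTRs and the alternative starts are not resolved. Il1rap (chromosome 16, 26581704 to 26730117, plus strand) and Il34 (chromosome 8, 110741829 to 110805924, minus strand) overlap annotated antisense genes. For the counting, no strand setting is given in the sources used here, so reads of these genes and their antisense partners cannot be told apart.

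The libraries held 35379988 to 151009954 reads. Values below are normalized counts, the reads of a gene divided by its library's size factor, which puts shallow and deep libraries on a common scale. The SCO label was checked with SCO marker genes: Sspo, which encodes SCO-spondin of the Reissner fibre, lay between 2027 and 9720 in SCO and between 1.03 and 3.30 in hippocampus. Of the 7 genes of the SCO list, 6 were higher in SCO by sign and 5 without overlap, against 48.64% and 4.78% of all tested genes. The 11 excitatory neuron genes of the hippocampus list summed to 113075 to 156777 in hippocampus and 5867 to 10315 in SCO. Some libraries stood apart. In hippocampus replicate 2 the 50 most abundant genes took 18.1% of reads, against 11.6% to 13.3% in the other 8 libraries. SCO replicate 4 held a choroid plexus marker sum of 243475, against 28123 to 28739 in the other SCO libraries. Over all 28150 genes tested, 859 were called at an adjusted p under 0.05 in limma (3.05%), and 2402 had tissues that did not overlap (8.53%).

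Il33, the nuclear alarmin, was abundant in every SCO library and close to absent from hippocampus. Its normalized counts were 2280, 5173, 3016 and 4130 in SCO replicates 1 to 4, from 1528 to 3690 reads. In hippocampus replicates 1 to 5 they were 1.25, 92.4, 5.16, 0 and 3.81, from 1, 56, 5, 0 and 10 reads. The tissues were far apart, and within hippocampus replicate 2 alone held more than a trace. The SCO mean was 3650 ± 1269 (SD, n = 4) and the hippocampus mean 20.5 ± 40.3 (n = 5), a ratio of 178. The difference of mean log2(normalized count + 1), SCO minus hippocampus, was 9.25 (SE 1.20), larger than that of 99.94% of the genes tested. Without hippocampus replicate 2 the hippocampus mean was 2.55 ± 2.35 (n = 4), the ratio 1429 and the log2 difference 10.25. A read count of 0, as in hippocampus replicate 4, allows up to 3 reads, or 1.10 normalized counts, for counting error only.

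**Figure D1:**
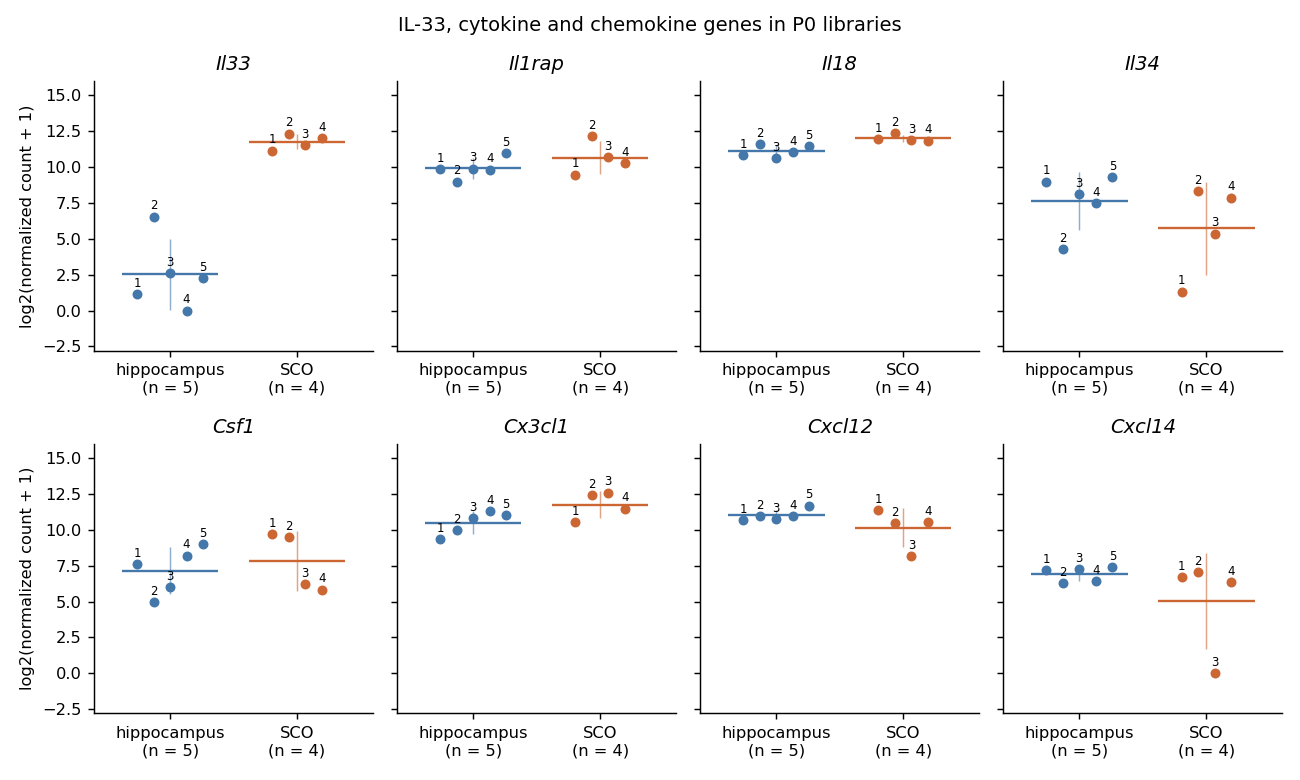
Expression of the 8 genes by library. The y axis is log2(normalized count + 1), points are libraries labelled by replicate number, horizontal bars are means and vertical lines are ± 1 SD (hippocampus n = 5, SCO n = 4). Il33 and Il18 have no overlap between the tissues, hippocampus replicate 2 is the highest hippocampus library for Il33, and Cxcl14 is at 0 in SCO replicate 3.

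Il18, the second IL-1 family ligand of the set, was high in both tissues and higher in SCO. Hippocampus replicates 1 to 5 held 1795, 3077, 1592, 2145 and 2800 normalized counts. SCO replicates 1 to 4 held 3978, 5356, 3788 and 3679. The lowest SCO library stood above the highest hippocampus library. The means were 4200 ± 780 (SD, n = 4) in SCO and 2282 ± 639 (n = 5) in hippocampus, a ratio of 1.84 and a log2 difference of 0.91 (SE 0.28). Il18 varied least of the 8 genes within a tissue, with a pooled SD of 0.35 on the log2 scale, below that of all but 12.01% of the 4755 genes within 2-fold of its mean.

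Il1rap, the co-receptor that IL-33 and IL-1 receptors share, overlapped between the tissues. Its normalized counts were 918, 507, 949, 907 and 2010 over hippocampus replicates 1 to 5. In SCO replicates 1 to 4 it had 715, 4629, 1655 and 1222. SCO replicate 2 was the highest library and SCO replicate 1 was below 4 of the 5 hippocampus libraries. The log2 difference was 0.75 (SE 0.57), and 0.24 without SCO replicate 2. Of the IL-33 receptor, then, the shared chain was read in all 9 libraries, while ST2 was not analysed here.

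Of the CSF1R ligands, Il34, the form made mainly by neurons, had a higher mean in hippocampus, and neither ligand separated the tissues. The normalized counts of Il34 were 507, 18.2, 282, 177 and 623 over hippocampus replicates 1 to 5, and 1.49, 319, 40.2 and 234 in SCO replicates 1 to 4. Csf1, the form made by glia and many other cells, had 197, 29.7, 64.0, 294 and 513 in hippocampus and 841, 716, 72.1 and 56.0 in SCO. Each gene spanned more than 10-fold within a tissue, and the tissues overlapped for both. The log2 difference was -1.91 (SE 1.54) for Il34 and 0.65 (SE 1.13) for Csf1. Without SCO replicate 1, which held a single read of Il34, they were -0.44 and 0.01.

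Cx3cl1, the membrane-bound chemokine of neurons, had its highest values in SCO. Hippocampus replicates 1 to 5 held 660, 1000, 1798, 2570 and 2061 normalized counts. SCO replicates 1 to 4 held 1458, 5444, 6168 and 2855. In SCO, 3 of the 4 libraries were above all hippocampus libraries, and replicate 1 was below 3 of them. The log2 difference was 1.25 (SE 0.53), and leaving out any 1 library gave 0.97 to 1.66.

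Cxcl12, the ligand of CXCR4 and ACKR3, and Cxcl14, a chemokine whose receptor is not settled, had lower means in SCO, where 1 library was far below the others. The normalized counts of Cxcl12 were 1609, 2011, 1733, 1971 and 3302 over hippocampus replicates 1 to 5, and 2615, 1391, 289 and 1509 in SCO replicates 1 to 4. Cxcl14 had 146, 77.6, 150, 84.8 and 165 in hippocampus and 101, 131, 0 and 81.7 in SCO. SCO replicate 3 was the lowest library for both genes, and the other SCO libraries lay within or just outside the hippocampus range. The log2 differences were -0.87 (SE 0.57) for Cxcl12 and -1.88 (SE 1.40) for Cxcl14, and -0.22 and -0.21 without SCO replicate 3. In that library 137 genes were at 0 that had at least 100 normalized counts in each of the other SCO libraries. The count of such genes was 121 to 164 over the 4 SCO libraries. In hippocampus replicates 1 to 5 it was 26, 53, 18, 22 and 148, where more other libraries had to reach 100. The part of such zeros in the values of Cxcl12 and Cxcl14 was not tested.

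Of the 8 genes, 1 was past the limma threshold (Il33), where 3.05% of all genes tested were. Tissues without overlap were found for 2 (Il33 and Il18), both higher in SCO, against 8.53% of all genes in either direction, 4.78% higher and 3.75% lower. Since the genes were chosen from this comparison, nothing is read from these counts. By sign, 5 of the 8 had a higher mean log2 value in SCO, against 48.64% of all tested genes. The median difference of the 8 was 0.70, against a median of -0.04 over all tested genes. Of the 8 genes, 0 had a log2 difference that changed sign under any of 18 alternative settings.

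Levels between genes were compared per length of transcript, as TPM, a share of all transcripts, computed from the reads and the exon length. In SCO the order of mean TPM was Il18 (172), Il33 (53.4), Cx3cl1 (42.5), Il1rap (7.72), Cxcl12 (7.55), Csf1 (3.44), Il34 (3.24) and Cxcl14 (1.85). In hippocampus it was Il18 (89.4), Cx3cl1 (17.3), Cxcl12 (10.8), Il34 (7.30), Il1rap (4.00), Cxcl14 (2.91), Csf1 (1.82) and Il33 (0.224). Il33 stood last in hippocampus and next to Il18 in SCO. Il18 lay above its neighbour in the order without overlap in both tissues, while the ranges of all other neighbours overlapped. The Il33 level per length was above that of 89.69% of genes in SCO, and above that of 27.81% in hippocampus.

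**Figure D2:**
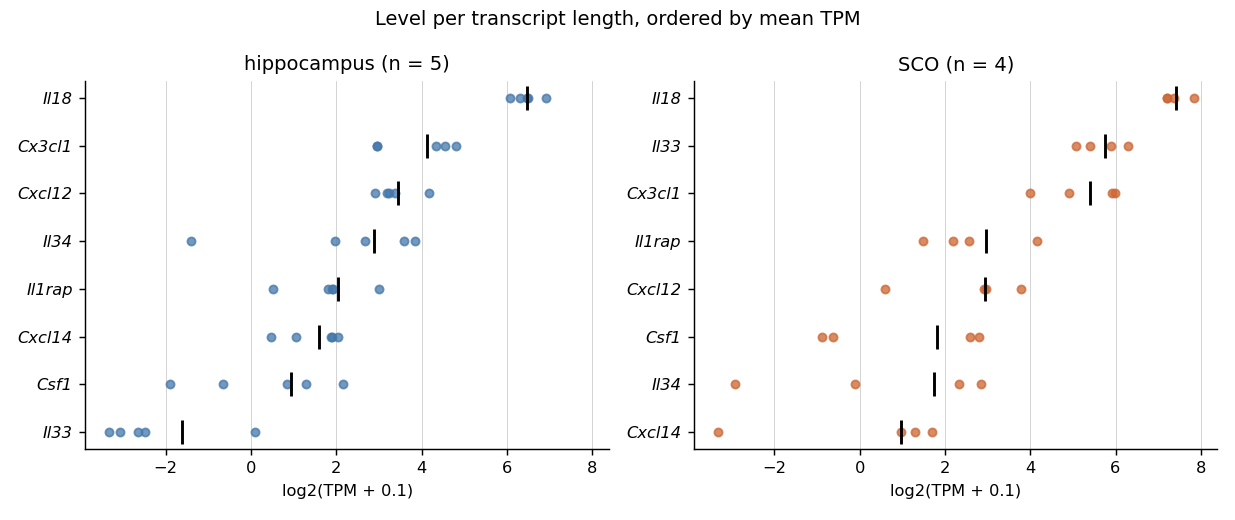
Level of the 8 genes per transcript length in each tissue. The x axis is log2(TPM + 0.1), points are libraries, and black bars are the mean TPM on that scale (hippocampus n = 5, SCO n = 4). Il18 leads in both tissues, and Il33 moves from the last place in hippocampus (mean 0.224 TPM) to the second in SCO (53.4 TPM).

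Within ligand groups the make-up of the transcripts was also measured. Il33 made up 16.9%, 25.3%, 22.1% and 28.6% of the summed TPM of 5 IL-1 family ligand genes in SCO replicates 1 to 4. In hippocampus its share was at most 1.06%, in replicate 2. Il18 made up 71.4% to 82.6% of that sum in SCO and 91.3% to 98.4% in hippocampus. IL-33 and IL-18 transcripts together thus filled nearly all of the measured IL-1 family ligand signal of the SCO. Il1b, the inflammatory cytokine IL-1 beta, had 1 read in SCO replicate 3 and 0 in the other 8 libraries. Il1a, its nuclear relative, had 104, 4.95, 244, 387 and 511 in hippocampus replicates 1 to 5, as normalized counts, and 41.8, 216, 0 and 0 in SCO replicates 1 to 4. Il1rn, the receptor antagonist, had reads in hippocampus replicate 2 alone, 69.3 normalized counts.

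Cx3cl1 made up 11.3% to 40.9% of the summed TPM of 27 chemokine ligand genes in SCO and 4.06% to 19.1% in hippocampus, so the ranges overlapped. Ccl27a had the largest mean in both tissues, 45.1 TPM in SCO and 67.4 in hippocampus. Its exons overlap those of Il11ra1 on the opposite strand, so its level is uncertain. Of the sum of Csf1 and Il34, Csf1 took 99.5%, 45.4%, 40.0% and 8.15% in SCO replicates 1 to 4. In hippocampus it took 7.77% to 38.1%. Il34 was the larger part in all 5 hippocampus libraries and in 3 of the 4 SCO libraries.

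The receptors and partners of these ligands were tested in the fit over all genes. Of 14 such genes 12 had enough reads to test, and 0 were called in limma at an adjusted p under 0.05. At an unadjusted p under 0.05 there were 4, all higher in SCO, against 15.5% of all genes in either direction. DESeq2 on the recovered reads called Ackr3 and Adam17, both higher, and edgeR called 0. Over all 28150 genes DESeq2 called 1493 higher and 1215 lower, and edgeR 300 and 203. The median log2 difference of the 12 was 0.42.

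Csf1r, the receptor of CSF1 and IL-34, had 1200, 607, 1349, 1019 and 2046 in hippocampus replicates 1 to 5, as normalized counts. In SCO replicates 1 to 4 it had 2287, 1796, 3682 and 2263. SCO replicate 2 lay below hippocampus replicate 5, and the other SCO libraries lay above all of hippocampus. The log2 difference was 1.07 (SE 0.39, limma adjusted p = 0.203). Its exons overlap those of Hmgxb3 on the opposite strand. Ptprz1 and Sdc1, further binding partners of IL-34, had log2 differences of 0.36 (SE 0.25, limma adjusted p = 0.550) and -1.13 (SE 0.82, limma adjusted p = 0.571).

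Cx3cr1, the microglial receptor of CX3CL1, overlapped between the tissues. It lay at 2651, 8989 and 9963 (lowest, median and highest) in hippocampus and at 8275 to 10509 in SCO. The log2 difference was 0.49 (SE 0.37, limma adjusted p = 0.590). Adam17, a protease that sheds CX3CL1, had tissues that did not overlap, with 698 to 2646 in hippocampus and 2968 to 5883 in SCO (log2 difference 1.22, SE 0.42, limma adjusted p = 0.170, DESeq2 adjusted p = 0.0426). Its exons overlap those of Iah1 on the opposite strand. Adam10, the other main sheddase, had a log2 difference of -0.51 (SE 0.41, limma adjusted p = 0.596).

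Of the CXCL12 receptors, Ackr3 is the scavenger and Cxcr4 the signalling form. Ackr3 had 951 to 1969 normalized counts in hippocampus and 2877, 3080, 2754 and 1632 in SCO replicates 1 to 4. SCO replicate 4 lay within the hippocampus range and the other 3 lay above it (log2 difference 0.89, SE 0.32, limma adjusted p = 0.195, DESeq2 adjusted p = 0.0272). Cxcr4 had 3.30 to 91.8 in hippocampus, 354 in SCO replicate 1 and 6.72 to 17.7 in the other SCO libraries (log2 difference 0.32, SE 1.39, limma adjusted p = 0.928). Dpp4, a peptidase that clips CXCL12, had a log2 difference of 1.47 (SE 1.91, limma adjusted p = 0.715). It ran from 0 to 497 in hippocampus and from 7.46 to 1063 in SCO.

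The IL-18 receptor chains were barely read. Il18r1 had 2 reads in SCO replicate 2 and none elsewhere, and Il18rap 1 read in hippocampus replicate 1 and none elsewhere. Both were too low to test. Il18bp, the soluble inhibitor that captures IL-18, had 30.0 to 307 normalized counts in hippocampus and 26.6 to 276 in SCO (log2 difference -0.32, SE 1.00, limma adjusted p = 0.895). Myd88, the adaptor of the IL-33, IL-18 and IL-1 receptors, had 19.0 to 639 in hippocampus and 7.38 to 692 in SCO (log2 difference -0.06, SE 1.46, limma adjusted p = 0.987). Exons of Il18bp and Myd88 overlap those of other genes on the opposite strand. Sigirr, an inhibitory receptor of the family, had 0 reads in 4 of 5 hippocampus libraries, with 66.5 in replicate 4. In SCO it had 156 to 586 in replicates 1 to 3 and 0 in replicate 4 (log2 difference 4.97, SE 2.06, limma adjusted p = 0.276). Il1rl2, the IL-36 receptor, had 0, 50.2, 1208 and 166 in SCO and at most 1 read in any hippocampus library (log2 difference 5.31, SE 1.78). Il1rl2 was not called in limma over all libraries, but was called higher in DESeq2 and in limma without SCO replicate 1. It was named after its values were seen.

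**Figure D3:**
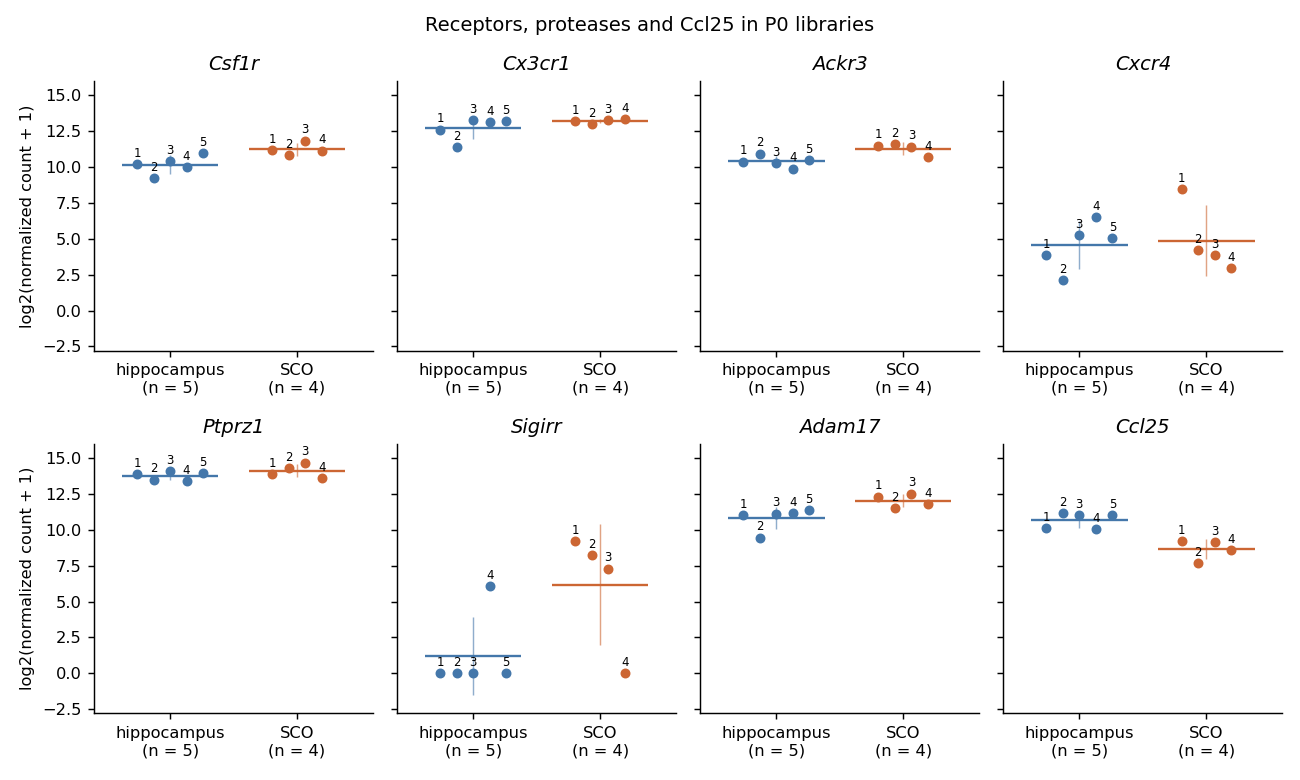
Receptors, a protease and Ccl25 by library. The y axis is log2(normalized count + 1), points are libraries labelled by replicate number, horizontal bars are means and vertical lines are ± 1 SD (hippocampus n = 5, SCO n = 4). Adam17 and Ccl25 have tissues without overlap, Cxcr4 is high in SCO replicate 1 alone, and Sigirr is at 0 in 4 hippocampus libraries and 1 SCO library.

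The wider cytokine and chemokine genes, the 9 chosen genes left out, were counted over 11 lists. Of 215 genes listed 174 have a row and 161 were tested. In limma 0 were called higher in SCO and 1 lower, against 1.71% and 1.34% of all genes. At an unadjusted limma p under 0.05 there were 11 higher and 10 lower, against 15.5% of all genes in either direction. The median log2 difference was 0.26, against -0.04 over all genes. Of the 161, 93 had a higher mean log2 value in SCO, against 48.64% of all tested genes. Tissues did not overlap for 3 genes higher in SCO (Ifngr1, Adam17 and Tnfsf9) and 3 lower (Map3k7, Ccl25 and Mif), against 8.53% of all genes.

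Ccl25, a chemokine best known from the thymus and gut, was the gene called. In hippocampus replicates 1 to 5 its normalized counts were 1100, 2270, 2063, 1038 and 2070, and 592, 207, 573 and 387 in SCO replicates 1 to 4. All SCO libraries were below all hippocampus libraries. The log2 difference was -1.99 (SE 0.45, limma adjusted p = 0.0404). The call was lost when any 1 of the 9 libraries was left out (limma adjusted p 0.0534 to 0.105) and in edgeR (adjusted p = 0.0642), and was kept in DESeq2 (adjusted p = 0.000103). The log2 difference stayed between -2.17 and -1.67 in all 18 alternatives. Its exons overlap those of Elavl1 on the opposite strand.

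Ifngr1, the ligand-binding chain of the interferon gamma receptor, had 551 to 3438 normalized counts in hippocampus and 5514 to 7588 in SCO (log2 difference 1.98, SE 0.47, limma adjusted p = 0.0527, DESeq2 adjusted p = 0.00316). It was called without hippocampus replicate 2 and without hippocampus replicate 5 (lowest limma adjusted p 0.0257). Mif, the macrophage migration inhibitory factor, had 17181 to 59604 in hippocampus and 8960 to 11742 in SCO (log2 difference -1.25, SE 0.33, limma adjusted p = 0.0735, DESeq2 adjusted p = 0.00447). It was called without hippocampus replicate 2, the library with the highest value (limma adjusted p = 0.0118). Tnfsf9, the ligand of the T cell receptor 4-1BB, had 47.2 to 272 in hippocampus and 307 to 1097 in SCO (log2 difference 2.17, SE 0.65, limma adjusted p = 0.111, DESeq2 adjusted p = 0.00390). Map3k7, the kinase TAK1 downstream of IL-1 family receptors, had 498 to 1012 in hippocampus and 11.9 to 441 in SCO (log2 difference -2.25, SE 0.95, limma adjusted p = 0.283, DESeq2 adjusted p = 0.203).

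Over all genes 3.05% were called in limma, and at that share lists as short as these can hold 0 calls. By list, 0 of 23 genes of IL-1 family signal transduction were called. Likewise, 0 of 10 inflammasome and protease genes and 0 of 6 other IL-1 family receptors were called. The same held for 5 genes of the colony stimulating factor axis, 16 chemokine receptors and 15 IL-6 type genes. It held also for 33 genes of other interleukins and 24 of the TNF and interferon families. Casp1, the protease that matures IL-18, averaged 179 normalized counts in hippocampus and 83.4 in SCO, with 0 reads in 4 of the 9 libraries. The largest median among the lists with at least 20 tested genes was 0.69, for the TNF and interferon genes. Of these, 19 of 24 had a higher mean log2 value in SCO, against 48.64% of all tested genes. The list was picked for this median.

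**Figure D4:**
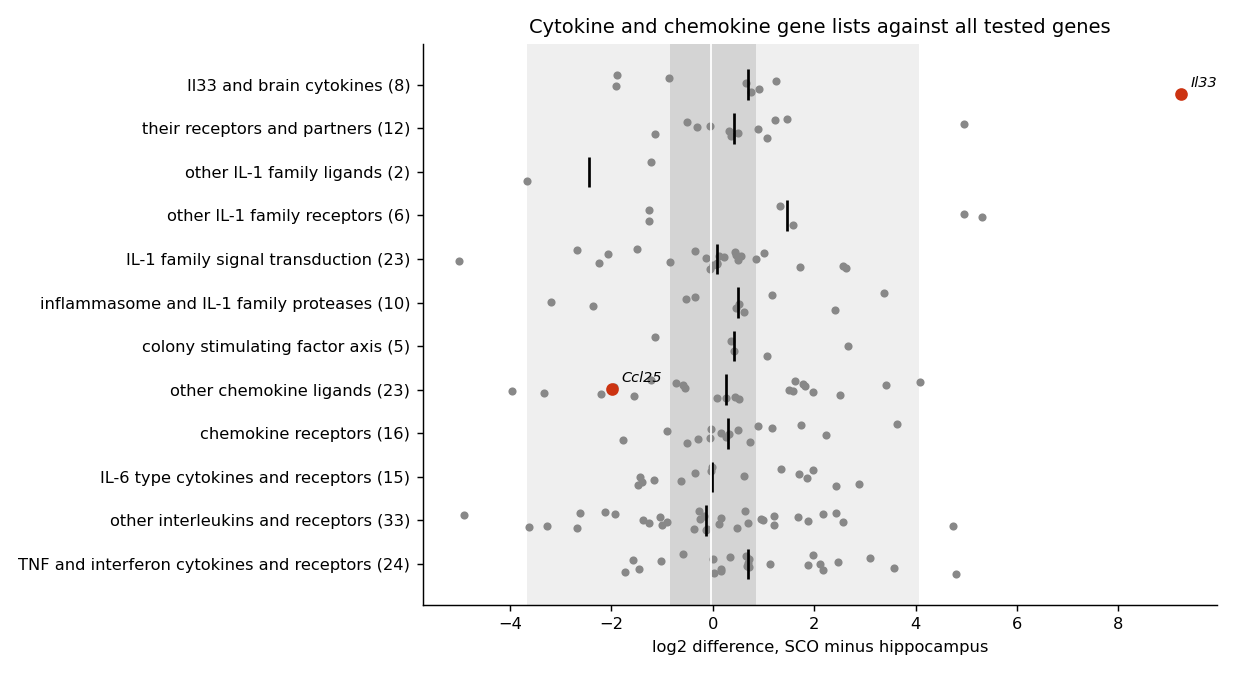
Log2 difference, SCO minus hippocampus, of each tested gene by list. Each point is a gene, red points are genes called at a limma adjusted p under 0.05, black bars are list medians, and the number of tested genes is in parentheses. Grey bands are the middle 50% and the middle 95% of all 28150 tested genes and the white line is their median. Il33, one of the genes chosen from this comparison, lies outside both bands at 9.25, and Ccl25 is at -1.99.

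Markers of cells that make or read these cytokines differed between the tissues too. For the counts below, 3.05% of all tested genes were called in limma, 8.53% had tissues without overlap and 48.64% were higher in SCO by sign. The 24 microglia genes summed to 24119 to 37389 normalized counts in hippocampus and 57636 to 82460 in SCO, 2 of 24 were called higher, including Ctss, which encodes a lysosomal protease, and 0 were at 0 throughout a tissue. The motile ependyma list, the cell class to which SCO cells are related, summed to 7161 to 12171 and 38470 to 61134, with 8 of 13 called higher. The SCO list summed to 1179 to 3311 and 19220 to 46676, with 5 of 7 called higher. The sums of the oligodendrocyte lineage list, one of the known Il33 sources, were 14822 to 22265 and 22719 to 30500, with 0 of 12 called. Those of the astrocyte list, the other known source, overlapped (61819 to 158883 and 84819 to 213993), with 1 of 10 called, lower (Slc1a2). By sign, 7 of the 10 astrocyte genes were higher in SCO, with a median log2 difference of 0.72. Aqp4, Gja1 and Agt were higher in SCO without overlap, and Slc1a2 was lower without overlap. Of the mast cell list, 6 of 9 genes have a row, 1 was called higher (Hdc), Mcpt4 was at 0 in hippocampus, and the sums overlapped (1644 to 6929 and 3184 to 4979). Border macrophage sums overlapped (293 to 2633 and 649 to 12133), with 0 of 7 called. The endothelial sums were 11965 to 22227 and 34500 to 45776, with 0 of 13 called. The red cell sums were 4234 to 27029 and 45987 to 79831, with 4 of 7 called higher. Pan-neuronal genes, from cells known to make Cx3cl1 and Il34, summed to 342615 to 487353 in hippocampus and 185946 to 389786 in SCO. Of these, 1 of 10 was called, lower, the median log2 difference was -0.55, and Snap25, Tubb3 and Stmn2 were lower in SCO without overlap. The choroid plexus sums were 4932 to 17036 and 28123 to 243475, with 1 of 11 called higher (Otx2), Kcnj13 at 0 in hippocampus and Kl at 0 in SCO. Meningeal fibroblast genes, a known source of Cxcl12, overlapped (5796 to 18515 and 7171 to 18150), with 0 of 11 called. The part of these cells in the values of the cytokine genes was not tested. Without SCO replicate 4, the library high in choroid plexus markers, the Il33 log2 difference was 9.16. The choroid plexus sums of the other SCO libraries (28123 to 28739) also lay above those of all hippocampus libraries. Leaving out replicate 4 therefore does not test the part of that tissue.

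For each of the 8 genes the most alike patterns were found among 13983 genes, by the root mean square distance of log2(normalized count + 1) over the 9 libraries after centring each gene. Nearest to Il33 were Crnde (distance 1.12), Neu3 (1.17) and Nup62cl (1.19). Nup62cl, a nucleoporin relative, had 3718 to 6380 normalized counts in SCO and 1.25, 368, 1.03, 0 and 0 in hippocampus replicates 1 to 5. Crnde, a non-coding RNA gene, had 304 to 1672 in SCO and 84.2 in hippocampus replicate 2, with 0 in the other 4. Neu3, a sialidase of gangliosides, had 328 to 650 in SCO, 84.2 in hippocampus replicate 2 and at most 0.381 in the others. All 3 thus shared with Il33 a raised value in hippocampus replicate 2, which the distance rewards.

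The value of hippocampus replicate 2 was 2.53% of the SCO mean for Il33, 8.05% for Nup62cl, 11.01% for Crnde and 17.8% for Neu3. Among SCO markers it was 2.38% for Spdef, a transcription factor of secretory epithelia (244 normalized counts), but 0.0766% for Sspo, with 2 reads. Car3, a carbonic anhydrase, was at 29.7 in this library, its lowest value in hippocampus. These percentages differed from gene to gene. The part of SCO tissue or reads in its Il33 value was not tested.

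**Figure D5:**
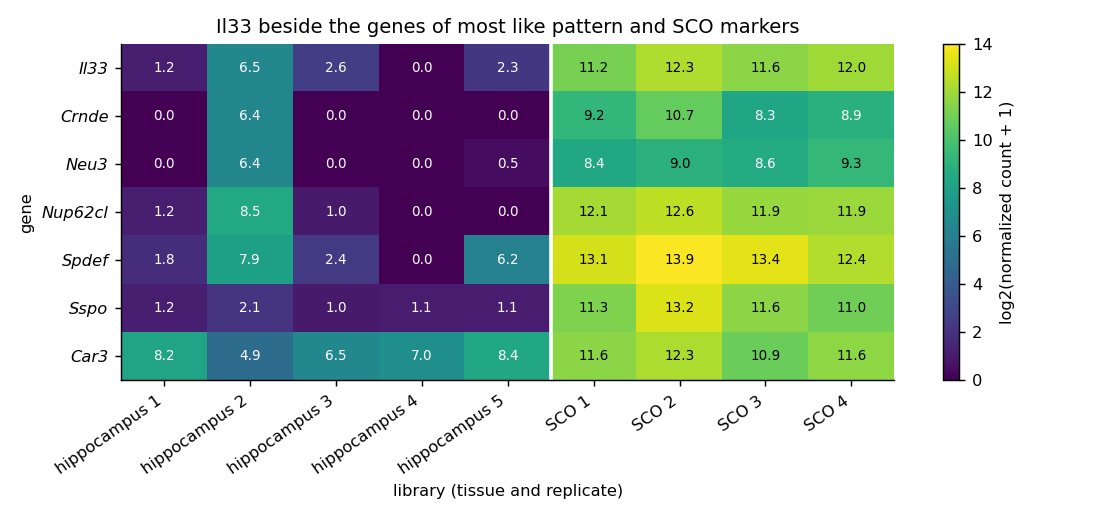
Il33, the 3 genes of most like pattern and 3 SCO markers by library. Columns are libraries by tissue and replicate, rows are genes, and colour and printed values are log2(normalized count + 1). In hippocampus replicate 2, Il33, Crnde, Neu3, Nup62cl and Spdef are raised, while Sspo has 2 reads and Car3 is at its lowest hippocampus value.

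The nearest patterns of Cxcl14, Cxcl12, Il34, Cx3cl1 and Il1rap shared the lowest SCO library of their gene. Those of Cxcl14 were Tysnd1, Plekha1 and Zdhhc3 (distance 0.28 to 0.37), all with a drop in SCO replicate 3, to 0.913, 30.1 and 10.96 normalized counts. Those of Cxcl12 were Nfat5, Usp48 and Ccz1 (0.30 to 0.32), also lowest in SCO replicate 3. Those of Il34 were Fancg, Pstpip2 and Zfp27 (1.02 to 1.06), each lowest in hippocampus replicate 2 and SCO replicate 1 of their tissues. Nearest to Il18 were Slc35a2, a transporter of UDP-galactose into the Golgi (0.20), CT010467.1 (0.22) and Akip1 (0.22). Slc35a2 had 1710 to 3395 in hippocampus and 4687 to 6301 in SCO. For Cx3cl1 they were Mesd, Coq8b and Unc93b1 (0.35 to 0.37), each lowest in replicate 1 of both tissues, as Cx3cl1 was. For Csf1 they were Tmem121b, Pxylp1 and H2-Ke6 (0.85 to 0.89), and for Il1rap Ikzf5, Ddit4 and Rgs5 (0.44 to 0.48). Those of Il1rap were each lowest in hippocampus replicate 2 and SCO replicate 1, as Il1rap was. The distance was smallest for Il18 and Cxcl14 and largest for Il33 and Il34, whose own values spread most within a tissue together with Cxcl14 and Csf1.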

How the data were processed

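Per the labels' protocols, RNA was isolated with the RNeasy Micro Kit and sequencing libraries were made with a TruePrep DNA kit. The submitters' processing notes name FastQC, HISAT and HISAT2, featureCounts, DESeq2 and the build GRCm38. Tool versions, annotation and strand setting are not stated in these notes or labels. The authors deposited, per gene and library, a normalized signal: read counts divided by 1 size factor per library. Per the file headers the same table holds the authors' log2 fold change and its SE, a statistic (a score), and a p-value and adjusted p-value. The authors' deposited table gives Il33 a log2 fold change of 7.50. A size factor scales all genes of a library alike.

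Dividing by the step that 1 read is worth gave whole reads for 100% of values (tolerance 1e-06, largest distance 1.9e-09). Depth was 35379988 to 151009954 reads. Bounds on a count of 0 cover counting error only: without molecular identifiers, reads are not independent molecules. TPM was computed from these reads and the merged exon length in GENCODE M21 (31302 of 31883 versioned identifiers matched).

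The test was limma-trend on log2(value + 1) over 9 libraries, without covariates, for the 28150 genes whose mean reached 1 in either tissue, with Benjamini-Hochberg adjustment and a threshold of 0.05. The pseudocount understates the change of low genes, while a mean of log2 values gives single low libraries more weight than a ratio of means does. Alternatives were another pseudocount (0.5 or 10), no filter, CPM scaling, edgeR and DESeq2 on the recovered reads, robust moderation, a replicate block, each library left out, and 1 pair of libraries left out. The script was tested on simulated data.

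The genes and lists were chosen with earlier results of these data known. The text names the 9 genes, their receptors and partners, up to 4 called genes per list with the largest log2 difference and a mean of at least 10 in the higher tissue, and per gene the 3 most alike patterns among those whose mean reached 100 in the higher tissue, without predicted models and pseudogenes. Marker genes are named where a list is described. Il1a, Il1b, Il1rn, Il1rl2, Casp1, Ccl27a and the pathway genes without overlap were named after their values were seen. Software was R 4.3.3, limma 3.58.1, edgeR 4.0.16, DESeq2 1.42.0, Python 3.11.15 and matplotlib 3.10.9.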

Additional observations from a re-analysis of the deposited data

Results flagged for a closer look

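For the chosen genes and their partners, 42 groups of 4 or 5 libraries were examined. Of these, 8 held a library far from the others of its tissue. The rule set the gap to the nearest library against the range of the group. Its nominal rate of about 1 in 20 was not measured over all genes. A gene with reads in 1 library of a group is flagged by construction, as Il18r1, Il18rap and hippocampal Sigirr were. Nothing is therefore read from the count of 8. Among the ligands, Il33 in hippocampus replicate 2 was at 92.4 normalized counts against 0 to 5.16 in the other hippocampus libraries, and Cxcl12 in hippocampus replicate 5 was at 3302 against 1609 to 2011. Among the receptors, Cxcr4 in SCO replicate 1 was at 354 against 6.72 to 17.7, and Sigirr in hippocampus replicate 4 at 66.5 against 0. The IL-18 receptor genes were flagged on 1 or 2 reads, Il18r1 in SCO replicate 2 at 2.95 and Il18rap in hippocampus replicate 1 at 1.25, each against 0 in the others. Among the proteases, Adam10 in hippocampus replicate 1 was at 5181 against 2565 to 3230, and Dpp4 in hippocampus replicate 5 at 497 against 0 to 110.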

How the results depend on the processing

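The log2 differences of the 8 chosen genes kept their sign in all 18 alternatives. With each library left out in turn, the Il33 difference ran from 8.62 to 10.25 and that of Csf1 was as small as 0.01. The Il33 difference was 7.57 in edgeR, 7.5 in DESeq2 and 7.53 with a pseudocount of 10. That of Cxcl14 was -0.71, -0.67 and -1.07, and that of Il34 -1.15, -1.11 and -1.41. The counts depended on the tool: genes higher in SCO numbered 481 in limma, 300 in edgeR and 1493 in DESeq2, and genes lower 378, 203 and 1215. Leaving out 1 library gave 285 to 647 higher and 189 to 430 lower. Of the pathway genes, DESeq2 called 8 higher and 6 lower, edgeR 0 and 0, leaving out 1 library 0 to 2 in each direction, and leaving out hippocampus replicate 2 with SCO replicate 4 called 2 higher and 2 lower. The cause was not tested.

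Deviations of same-numbered libraries had correlations of -0.0289 to 0.0189, and those of other pairs -0.0329 to 0.0569. The deposited column names carry the same number for replicate 2 of both tissues (-0.0248). They do so also for SCO replicate 3 with hippocampus replicate 4 (0.0569, the highest of all). Correlations this near 0 cannot decide whether libraries of the 2 tissues shared an animal. The replicate block joined libraries by replicate number, not by the numbers in the column names, so it may not follow any true pairing. With the replicate block, 0 genes were called higher and 1 lower, of the pathway genes 0 and 0, and hippocampus replicate 5 had no partner. A low read number limits Il18r1, Il18rap, Il1b and hippocampal Il33, where 1 read is worth 0.366 to 1.65 normalized counts. With 4 and 5 libraries, differences of genes that vary as Csf1, Il34 and Cxcl14 did carry SEs above 1 on the log2 scale.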
